A study of Homo sapiens with 6 samples.

Results

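Ribosome biogenesis factors were followed in the human fibrosarcoma line HT1080. The set was a list of 47 genes, and its members were all probe sets whose only gene symbol in the platform annotation was on the list. That rule found 54 of the 22283 probe sets on the array, for 38 of 11963 singly named genes. The other 9 listed genes (BOP1, DDX18, DKC1, EBNA1BP2, GNL3, LYAR, NOB1, NOP56 and NOP58) had no probe set of their own and were not analysed here; 3 of them share a probe set with other symbols. Of the 54 probe sets, 53 passed the filter on dim signals, and each of the 38 genes kept at least 1.

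The study measured total RNA on 6 single-channel oligonucleotide arrays in 3 groups of 2. All cells were HT1080 transfected with the pGUS vector, which makes GFP: mock cells had the vector with GFP only (titled GUS), MT1 cells had it with an siRNA against the mRNA of MT1-MMP, and alpha3 cells had it with an siRNA against integrin alpha3. The labels do not say whether the transfected cells were pools or clones, nor that each array had its own culture, and p-values here reflect only array-to-array spread, which may be technical. The members were listed with earlier results of these arrays in view, so member values in the comparisons with the MT1-MMP siRNA arrays are descriptions with no test.

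The targets lay lowest in their own groups: MMP14, which encodes MT1-MMP, had signals of 1971 and 3064 in mock cells and 812 and 717 with its siRNA and 999 and 1804 in alpha3 cells, which also lay below both mock arrays. ITGA3 had 1139 and 1290 in mock cells and 148 and 347 with its siRNA. Neither passed the threshold in limma (adjusted p = 0.139 for MMP14 and 0.136 for ITGA3, each against mock). The array medians lay between 72.9 and 83.1. Of the 6 mesenchymal markers checked, all 6 passed the filter (vimentin at 12270.5 or above on every array), as did 0 of 6 epithelial, 1 of 4 endothelial (PECAM1) and 1 of 4 leukocyte (CD3E) markers. The mesenchymal S100A4 (22.8 to 89.7) lay just above the filter signal of 47.5, and the epithelial KRT5 (25.5 to 93.1) just under it. The 18 hybridisation control probe sets differed too: relative to the mock mean, their median was 2.30-fold and 1.29-fold for MT1 cells, 0.812-fold and 0.841-fold for alpha3 cells, and 0.927-fold and 1.07-fold for the mock arrays themselves. Their part in the results was not tested. In RNA of whole cultures, less transcript in every cell and fewer cells with it cannot be told apart.

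Ribosomes are built in the nucleolus, where RNA polymerase I makes 1 long precursor of 3 of the ribosomal RNAs. Small nucleolar ribonucleoproteins (snoRNPs) guide its methylation (box C/D) and pseudouridylation (box H/ACA), and large sets of assembly factors, helicases and GTPases fold, cut and export the small and large subunits. Proliferating tumour cells make these factors at high rates, and the transcription factor MYC, which binds the E-box CACGTG, is a textbook activator of their genes.

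The promoters are shown first, because an E-box is what many members share that the rule did not use. The RefSeq table (GRCh38.p14, 250 bases before to 50 after a start site) held 46 promoters of 38 of the 47 listed genes. CACGTG, which reads the same on both strands, was in 23 of the 46 (50%), and in at least 1 promoter of 22 of the 38 genes. It was in 7.26% of all 35116 promoters of the table, in 9.38% of the 10076 promoters of genes that passed the signal filter, and in 22.2% of the 153 promoters of the other biogenesis genes described later. By gene, at least 1 promoter held it in 879 of 6717 genes that passed the filter and in 33 of 132 other biogenesis genes. In 17 of the 23 member promoters the first match began within 50 bases of the start site. The window ends 50 bases past that site, so every match past it is counted here. The position was not counted over all promoters, so nothing is read from it. The stretches below run 5′ to 3′ with the E-box in capitals, and only promoters that hold it are shown. They belong to 7 of the members with the largest differences with MT1-MMP siRNA, and to RCL1, which lay the other way.
MRTO4: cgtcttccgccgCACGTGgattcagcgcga
RRP9: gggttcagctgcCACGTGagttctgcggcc
AATF: gacagaagcggtCACGTGccttggcgcgct
BYSL: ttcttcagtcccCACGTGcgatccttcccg
NAT10: aatgcgcttgcgCACGTGctgtctaccagt
PWP2: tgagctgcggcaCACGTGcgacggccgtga
DDX21: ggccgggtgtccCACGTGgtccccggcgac
RCL1: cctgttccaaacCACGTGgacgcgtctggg

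The MRTO4 stretch is at chr1:19251807-19251836 on the plus strand, with the E-box 14 bases past the start site, inside the transcribed sequence. RRP9 is at chr3:51941892-51941921 on the minus strand and AATF at chr17:36948785-36948814 on the plus strand, where the E-box begins at position -157 relative to the start site. The other 5, all on the plus strand, are BYSL at chr6:41921515-41921544, NAT10 at chr11:34105602-34105631, PWP2 at chr21:44107388-44107417, DDX21 at chr10:68956604-68956633 and RCL1 at chr9:4792936-4792965. GRWD1 and EMG1, 2 of the members with the largest differences, have no CACGTG in their window. RRS1 and MPHOSPH10, also among the largest, have no promoter in the RefSeq table, and DDX21 has a further promoter without the motif. Among measured members with a promoter in the table, the 19 with the motif had a median log2 difference of -0.31 between MT1-MMP siRNA and mock, and the 13 without it had -0.39. A match is a description of the sequence and not a site of binding.

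MYC itself had signals of 201 and 332 in mock cells, 215 and 296 in MT1 cells and 236 and 407 in alpha3 cells. All groups overlapped, and array 2 was the higher array in each.

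With MT1-MMP siRNA against mock, most ribosome biogenesis factors lay lower. Of the 38 measured genes, 34 had a log2 difference below 0, where 49.7% of all 8045 genes did, and the median was -0.41 against 0.00 for all genes. The 4 members above 0 (50.3% of all genes) were GNL2, POLR1B, NPM1 and RCL1. The signals of the 2 groups did not overlap for 28 members on the lower side and 1 on the higher side, against 25.3% and 24.6% of all genes. A log2 difference here is taken on log2(signal + 32), on the brightest probe set of a gene, and understates changes of dim genes. In the comparison across all genes 0 passed a Benjamini-Hochberg adjusted p of 0.05 in limma, and 616 lower and 544 higher had an unadjusted p under that value. These shares describe a set that was drawn up with this comparison known, and nothing is read from them.

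**Figure D1:**
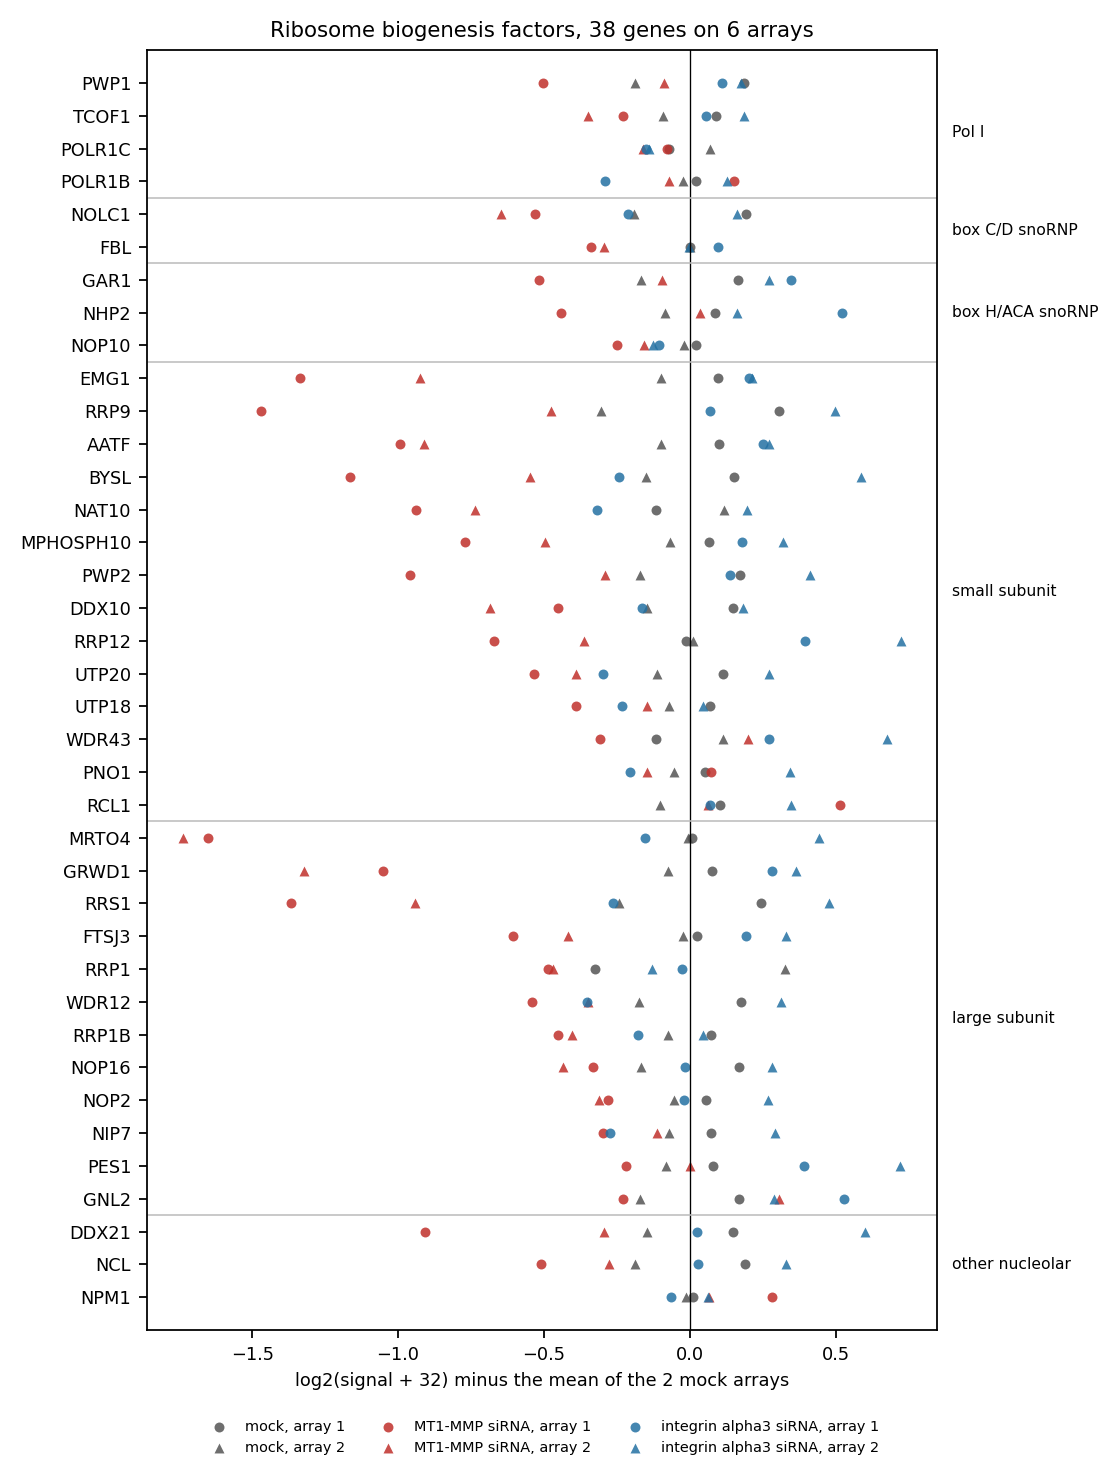
Each row is 1 of the 38 measured members and each point 1 array, placed by log2(signal + 32) minus the mean of the 2 mock arrays; rows are grouped by role. The MT1-MMP siRNA arrays (red) lie left of both mock arrays (grey) for 28 members, farthest for MRTO4, GRWD1, RRS1, EMG1 and RRP9.

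The factors of the large subunit held the most extreme members. Of 12 measured, 11 lay below 0, with a median log2 difference of -0.44. MRTO4, a nucleolar relative of the ribosomal stalk protein P0 that holds its place on the precursor, had 807 and 799 in mock cells, 234 and 218 in MT1 cells and 718 and 1103 in alpha3 cells. Its mean was 3.55-fold lower with MT1-MMP siRNA than in mock cells, a log2 difference of -1.69 (SE 0.23), while the alpha3 siRNA arrays lay on either side of the mock pair. GRWD1, a WD-repeat protein and histone chaperone of the nucleolus, had 346 and 309 in mock cells, 141 and 112 in MT1 cells and 404 and 429.6 in alpha3 cells (log2 difference from mock -1.19 with MT1-MMP siRNA, SE 0.20). Its 3 groups did not overlap, with MT1-MMP siRNA lowest and alpha3 siRNA highest.

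RRS1, which helps to bring the 5S particle into the large subunit, had 1028 and 724 in mock cells, 315 and 434 in MT1 cells and 714 and 1215 in alpha3 cells (log2 difference from mock -1.16, SE 0.30, with MT1-MMP siRNA). The mock arrays themselves differed, but both MT1-MMP siRNA arrays lay below every other array. FTSJ3, a ribosomal RNA methyltransferase, had 1225 and 1182 in mock cells, 779.9 and 892 in MT1 cells and 1381 and 1519.6 in alpha3 cells. RRP1 had 89.5 and 159 in mock cells, 76.7 and 78.1 in MT1 cells and 118 and 107 in alpha3 cells. Its mock arrays lay far apart, and without 1 array its log2 difference ran from -0.80 to -0.15. WDR12, RRP1B, NOP16, NOP2 and NIP7 were lower without overlap by log2 differences from -0.44 to -0.20. WDR12 works in 1 complex with PES1, which had 449 and 399 in mock cells and 359 and 424 in MT1 cells and overlapped. GNL2, a GTPase of large subunit export, also overlapped, at 282 and 216 against 206 and 312.

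The small subunit factors had the lowest median of the role groups with more than 3 measured genes, -0.60 over 14 genes, of which 13 lay below 0. EMG1, which methylates a pseudouridine of the small subunit's RNA, had 1844 and 1606 in mock cells, 663 and 891 in MT1 cells and 1988 and 1999 in alpha3 cells (log2 difference from mock -1.13, SE 0.20, with MT1-MMP siRNA). AATF, part of a nucleolar complex for small subunit assembly, had 799 and 691 in mock cells, 357 and 380.0 in MT1 cells and 889 and 903 in alpha3 cells (-0.95, SE 0.18). For EMG1 and AATF alike the MT1-MMP siRNA arrays were lowest, the mock arrays between, and the alpha3 siRNA arrays highest, with no overlap.

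RRP9, a protein of the U3 particle that opens processing of the precursor, had 244 and 149 in mock cells, 48.8 and 129 in MT1 cells and 203 and 284 in alpha3 cells (-0.97, SE 0.36). Its difference rests mainly on MT1-MMP siRNA array 1, and without that array it was -0.48. BYSL, a factor of late small subunit precursors, had 421 and 335 in mock cells, 150.0 and 247 in MT1 cells and 313 and 579.9 in alpha3 cells (-0.86, SE 0.32, and -0.55 without MT1-MMP siRNA array 1). NAT10, the acetyltransferase of the small subunit's RNA, had 677 and 802 in mock cells, 369 and 429 in MT1 cells and 585 and 849 in alpha3 cells (-0.84, SE 0.23). In BYSL and NAT10 both MT1-MMP siRNA arrays lay below all others, and the alpha3 siRNA pair spanned the mock pair.

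MPHOSPH10, a partner of the U3 particle, had 299 and 269.5 in mock cells, 153 and 192 in MT1 cells and 326 and 362 in alpha3 cells. PWP2, a scaffold protein of the earliest small subunit particle, had 294 and 224 in mock cells, 117 and 204 in MT1 cells and 286 and 353 in alpha3 cells. MPHOSPH10 and PWP2 had close log2 differences (-0.63, SE 0.20, and -0.62, SE 0.27), but PWP2 ranged from -0.96 to -0.29 when 1 array was left out and MPHOSPH10 from -0.77 to -0.50. DDX10, an RNA helicase, had 513 and 412 in mock cells, 327 and 274 in MT1 cells and 407 and 526 in alpha3 cells. UTP20 and UTP18, components of the early particle, were lower without overlap by log2 differences of -0.46 and -0.27. WDR43 and PNO1 overlapped, at -0.05 and -0.04. RCL1, a protein required for an early cut of the precursor, was the member farthest on the higher side, at 181 and 153 in mock cells, 251 and 175 in MT1 cells and 176 and 219.9 in alpha3 cells, where all 3 groups overlapped (0.29, SE 0.23, and 0.06 without MT1-MMP siRNA array 1).

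The 2 measured box C/D members had a median of -0.45, and the 3 box H/ACA members one of -0.20. FBL, the methyltransferase of box C/D particles, had 2276 and 2279 in mock cells and 1794 and 1852 in MT1 cells, a tight pair in each group (-0.32, SE 0.16). NOLC1, a chaperone of both kinds of particle, had 1234 and 939 in mock cells, 736 and 675 in MT1 cells and 926 and 1208 in alpha3 cells (-0.59, SE 0.22). Of the box H/ACA proteins, NOP10 was lower without overlap (-0.20), while GAR1 (-0.31) and NHP2 (-0.20) overlapped because MT1-MMP siRNA array 2 lay within the mock pair for GAR1 and NHP2. The 4 members of RNA polymerase I transcription also had a median of -0.20. TCOF1, the nucleolar factor of Treacher Collins syndrome, was lower without overlap (-0.29), as was POLR1C, a subunit that polymerases I and III share (-0.12), while PWP1 (-0.29) and the polymerase I subunit POLR1B (0.04) overlapped. POLR1B had 1 probe set, of the _x_at kind described below, with signals from 71.7 to 108.9. Dimmer probe sets of POLR1C (-0.45) and PWP1 (-0.48 and -0.16) were lower without overlap.

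Of the abundant nucleolar proteins, DDX21, a helicase that links polymerase I to processing, had 1970 and 1602 in mock cells, 932 and 1442 in MT1 cells and 1809 and 2711 in alpha3 cells (-0.60, SE 0.27, and -0.30 without MT1-MMP siRNA array 1). NCL (nucleolin) had a log2 difference of -0.39 with no overlap. NPM1 (nucleophosmin) was the 1 member higher without overlap, at 6908 and 6791 in mock cells and 8333 and 7172 in MT1 cells (0.17, SE 0.15). That direction turned under quantile normalization (-0.08) and on its other probe sets, and the difference was 0.05 under cyclic loess and 0.07 without MT1-MMP siRNA array 1.

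Probe sets of the same gene did not always give the same difference. Of the 10 members with more than 1 probe set above the filter, 2 had probe sets on both sides of 0 with MT1-MMP siRNA against mock, RRP12 and NPM1. RRP12, which acts in small subunit maturation and export, had 269 and 274 in mock cells, 159 and 205 in MT1 cells and 368 and 469.6 in alpha3 cells on its brightest probe set, an _x_at probe set (log2 difference -0.52). On a second probe set it had 176 and 193 in mock cells, 46.6 and 33.1 in MT1 cells and 225.4 and 392.4 in alpha3 cells (-1.60). The third was dim and its groups overlapped (0.08), whereas the first and second placed the groups in the same order.

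PNO1, which holds the end of the small subunit's RNA for the final cut, had 876 and 766 in mock cells and 381 and 459 in MT1 cells on 1 probe set (-0.92), but 712 and 659 against 722 and 616 on the _x_at probe set that entered the fit (-0.04). The suffix _x_at marks probe sets whose probes also match other transcripts. Without probe sets of that suffix, an alternative chosen after these values were seen, the median of the members was -0.44. The 3 probe sets of NPM1 had log2 differences of 0.17, -0.09 and -0.20. Of all 53 probe sets above the filter, 48 lay below 0 and 39 were lower without overlap, against 49.6% and 24.8% of all 11828 probe sets above it.

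**Figure D2:**
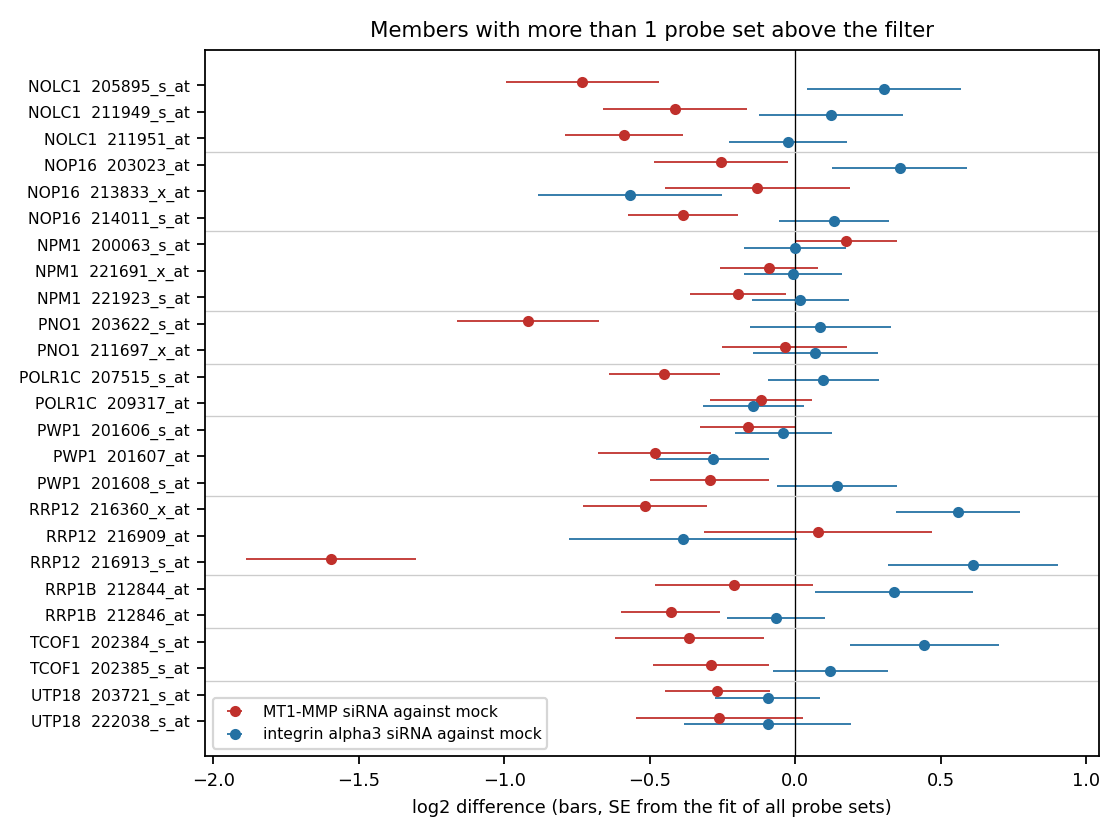
Log2 differences from mock, with SE bars from a fit of all probe sets, for each probe set of the 10 members that have more than 1 above the filter (red, MT1-MMP siRNA; blue, integrin alpha3 siRNA). PNO1 and RRP12 hold the widest spreads in red, from -0.92 to -0.04 and from -1.60 to 0.08, while the pair of UTP18 lies at -0.27 and -0.26.

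With alpha3 siRNA against mock, no member passed the threshold. limma called 2 of 8045 genes (0.0249%) in that comparison, both higher and neither a member, and the lowest adjusted p among members was 0.851. At an unadjusted p under 0.05 there were 2 members, both higher, against 2.51% of all genes on that side and 3.22% on the lower side. The median log2 difference of the members was 0.14, and 27 of 38 lay above 0, where 48% of all genes did. The 2 groups did not overlap for 11 members on the higher side and 2 on the lower side, against 16.4% and 18% of all genes. The median rested on which arrays were used: it was 0.01 without alpha3 siRNA array 2, with 19 of 38 members below 0, and 0.29 without mock array 1, with 6 below 0. Both comparisons share the mock arrays, so their values are not independent of each other.

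The members farthest from mock with alpha3 siRNA were RRP12 and PES1. RRP12, whose signals are given above, had a log2 difference of 0.56 (SE 0.21, limma adjusted p = 0.852). PES1, a core protein of large subunit processing, had 566 and 718 against 449 and 399 in mock cells (0.56, SE 0.21, adjusted p = 0.851). WDR43, an early small subunit factor, had 205 and 282 against 149.8 and 181 (0.47), and GNL2 had 370.2 and 309 against 282 and 216 (0.41). NHP2, a box H/ACA protein, had 3572 and 2772 against 2632 and 2331 (0.34), and GRWD1 had 0.32. All 6 of these lay higher without overlap, and none passed the threshold. Without 1 array the differences came down to 0.27 for WDR43 (alpha3 siRNA array 2), 0.24 for GNL2 (mock array 2) and 0.16 for NHP2 (alpha3 siRNA array 1).

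With MT1-MMP siRNA against alpha3 siRNA, limma called 112 of 8045 genes (1.39%), 46 lower (0.572%) and 66 higher (0.82%). MRTO4, GRWD1, EMG1 and AATF were among the lower ones, with log2 differences of -1.84, -1.51, -1.34 and -1.21. These 4 of 38 are a description, because the comparison uses the same MT1-MMP siRNA arrays that were known when the members were listed. Over all members the median was -0.54, 34 lay below 0, and 29 were lower without overlap, against 25.9% of all genes. Leaving out either MT1-MMP siRNA array left 0 called genes, leaving out alpha3 siRNA array 2 left 6, none of them a member, and leaving out alpha3 siRNA array 1 left 60, with MRTO4 and GRWD1 among them. With no signal filter EMG1 was not called. With 1 array fewer the fit also has fewer degrees of freedom.

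Array by array, the members were lowest in MT1 cells. The median over members of the log2 value minus the gene's mean over all arrays was -0.38 and -0.22 for MT1 cells, 0.19 and 0.00 for mock cells, and 0.11 and 0.37 for alpha3 cells. For all genes the same medians lay between 0.00 and 0.01. MT1-MMP siRNA array 1 was the lowest of the 6 arrays for 26 of the 38 members, and alpha3 siRNA array 2 was the highest for 24. These counts were not taken over all genes, and the members were listed with the MT1-MMP siRNA arrays known. The 2 MT1-MMP siRNA arrays were below the 4 other arrays in the members' median, but the alpha3 siRNA pair overlapped the mock pair.

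**Figure D3:**
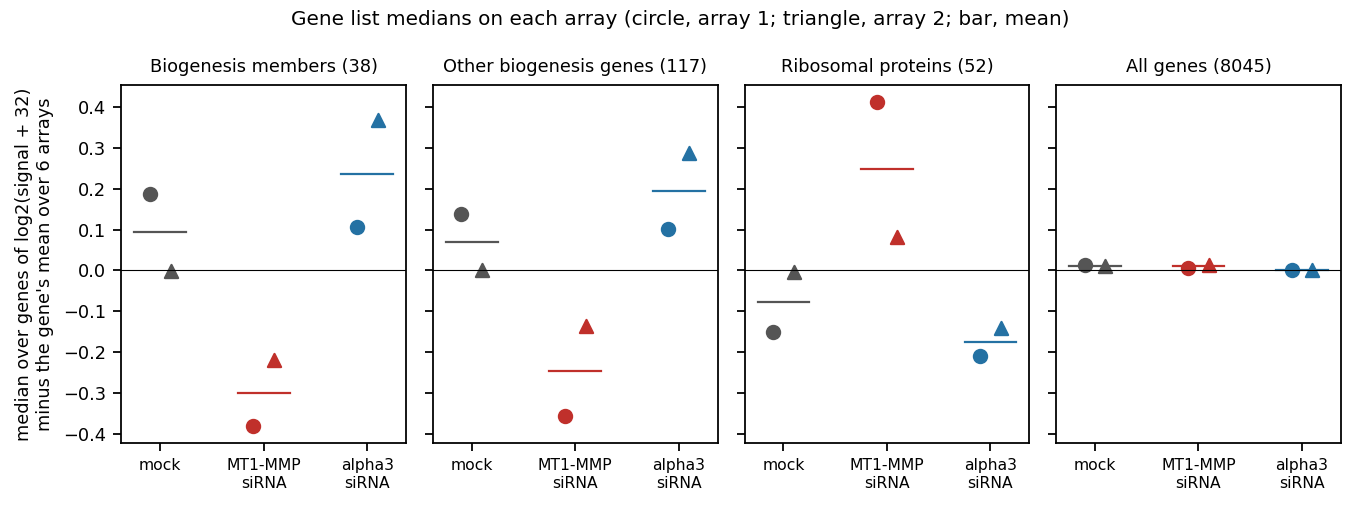
Median over the genes of a list of log2(signal + 32) minus each gene's mean over the 6 arrays, 1 point per array (circle, array 1; triangle, array 2) and a bar at the group mean. The members sit at -0.38 and -0.22 with MT1-MMP siRNA, the 117 other biogenesis genes at -0.36 and -0.13, the ribosomal proteins at 0.41 and 0.08, and all genes near 0.

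A further 148 ribosome biogenesis genes that are not members were listed from general knowledge of the pathway, with earlier results of these data known. They were read on the same arrays, so they are not an independent check of the members. Of the 148, 117 passed the signal filter. With MT1-MMP siRNA against mock 0 passed the threshold in limma (lowest adjusted p = 0.134), and 25 lower and 1 higher had an unadjusted p under 0.05, where 7.66% and 6.76% of all genes did. Their median log2 difference was -0.29, with 101 of 117 below 0, against 49.7% of all genes. Arrays did not overlap for 67 on the lower side and 5 on the higher side, against 25.3% and 24.6%. By role, 27 of 33 small subunit factors, 38 of 43 large subunit factors, 16 of 19 genes of trimming and cleavage, 7 of 7 of snoRNP assembly, 9 of 11 of polymerase I transcription and 4 of 4 of export lay below 0. The role medians ran from -0.41 for the small subunit to -0.17 for polymerase I transcription.

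The largest of these differences were in RPP40 and SENP3. RPP40, a protein of the RNA-cutting enzymes RNase P and MRP, had 749.9 and 404 in mock cells, 172 and 264 in MT1 cells and 769 and 750.3 in alpha3 cells. SENP3, a nucleolar protease that removes SUMO from large subunit factors, had 495 and 401 in mock cells, 168 and 184 in MT1 cells and 499.7 and 560.2 in alpha3 cells. In RPP40 and SENP3 the MT1-MMP siRNA arrays lay lowest and the alpha3 siRNA arrays above every mock array. For RPP40 the alpha3 siRNA arrays barely exceeded mock array 1, and the log2 difference of 0.44 from mock was 0.02 without mock array 2. Its difference with MT1-MMP siRNA against mock ran from -1.67 to -0.83 when 1 array was left out. Next came RRP7A (-1.14), NOL6 (-0.98), RIOK2 (-0.95) and TAF1C (-0.93). TAF1C, part of the polymerase I promoter factor, had 10.8 and 74.8 with MT1-MMP siRNA, and its difference was -0.27 without array 1 of that group. RRP7A was read on an _x_at probe set, and its other probe set gave -0.70. On the higher side FCF1 (0.49), RSL24D1 (0.40) and RRN3 (0.34), the initiation factor of polymerase I, were higher without overlap. FCF1 was dim, and its difference was 0.23 without MT1-MMP siRNA array 2 and 0.28 with an offset of 100. Neither these nor the lower genes named before them passed the threshold against mock.

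Between the 2 siRNAs, 5 of the 117 passed the threshold and all 5 were lower with MT1-MMP siRNA than with alpha3 siRNA, against 0.572% of all genes on that side. These genes too were listed with earlier results of these arrays known, so the 5 are not an independent check of the members. SENP3 had a log2 difference of -1.43 (SE 0.20, limma adjusted p = 0.0272) and RPP40 one of -1.69 (SE 0.30, adjusted p = 0.0411). EIF6, which keeps the new large subunit from joining the small one too early, had 1444 and 1702 in MT1 cells, 3711 and 3306 in alpha3 cells and 2640.1 and 2826 in mock cells (-1.14, SE 0.17, adjusted p = 0.0287). Its mock arrays lay between the others without overlap. ISG20L2, a nucleolar exonuclease, had -1.25 (SE 0.19, adjusted p = 0.0301), and WDR46, an early small subunit factor, had -1.22 (SE 0.22, adjusted p = 0.0425). Without either MT1-MMP siRNA array, or without alpha3 siRNA array 2, 0 of the 5 passed. Without alpha3 siRNA array 1, or with no signal filter, only SENP3 did. RPP40 and WDR46 did not pass with an offset of 1 or without the intensity trend, and WDR46 did not pass with only the compared groups or without either mock array. With alpha3 siRNA against mock 0 of the 117 passed in limma (lowest adjusted p = 0.833, with 4 higher and 1 lower at an unadjusted p under 0.05, against 2.51% and 3.22% of all genes). Of these genes 93 lay above 0, against 48% of all genes, with a median of 0.15, which was 0.03 without alpha3 siRNA array 2.

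The 52 ribosomal proteins, the products that these factors assemble, lay on the opposite side. With MT1-MMP siRNA against mock all 52 had a log2 difference above 0, against 50.3% of all genes, with a median of 0.32. But under quantile normalization the median was 0.06 with 34 of 52 above 0, and under cyclic loess 0.17 with 46 above 0. Without MT1-MMP siRNA array 1 the median was 0.17 with 46 above 0, and without array 2 of that group it was 0.50. The members' median was -0.40 under quantile normalization and -0.35 under cyclic loess. With alpha3 siRNA against mock the ribosomal proteins had a median of -0.12, and -0.04 under quantile normalization. The difference between the lists was not tested.

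**Figure D4:**
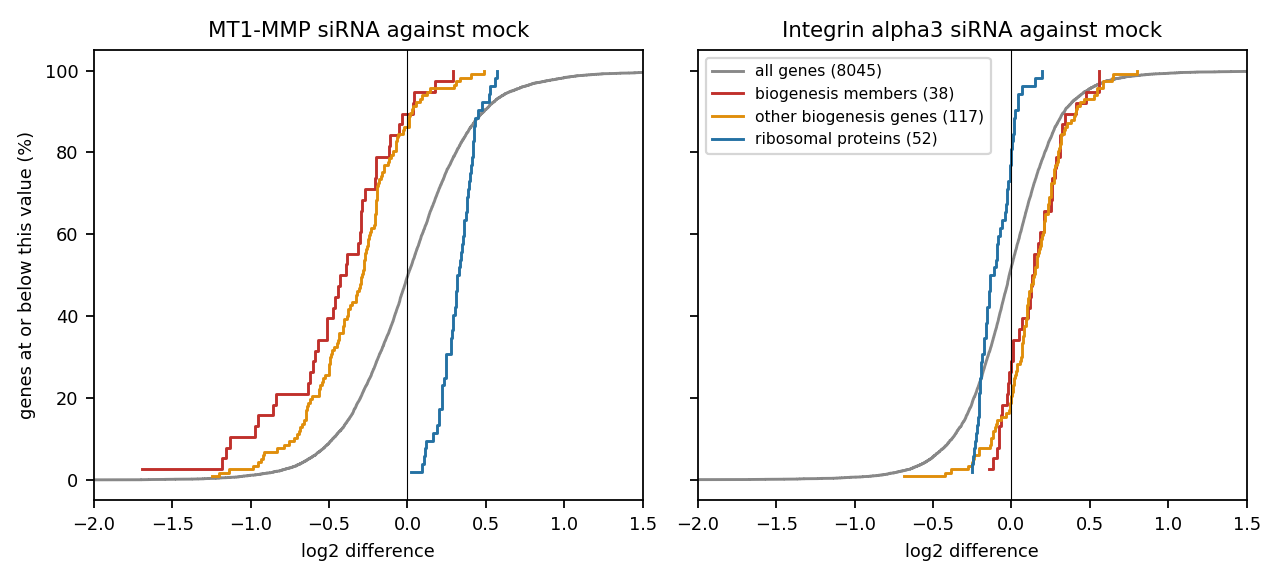
Share of genes (vertical axis, %) at or below each log2 difference (horizontal axis), for MT1-MMP siRNA against mock and for integrin alpha3 siRNA against mock. In the first panel the members (median -0.41) and the other biogenesis genes (-0.29) lie left of all genes (0.00) and the ribosomal proteins (0.32) right of them; in the second the medians are 0.14, 0.15, -0.01 and -0.12, and the panels share the mock arrays.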

How the data were processed

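The authors deposited 1 intensity for each probe set of the 6 arrays, on a linear scale. Averaged over the middle 96% of probe sets, the deposited values came to 250.1 on each array, a common scale set before deposit. Summarisation software and background method: not given in the sources used here. A floor of 1 was applied, followed by log2(value + 32). Probe sets were named through GEO's platform annotation (19065 with 1 symbol, array controls aside). The filter kept the 11828 of them whose mean exceeded the 40th percentile (6.31 in log2 units, a signal of 47.5), and the brightest of each gene gave 8045 genes. limma 3.58.1 in R 4.3.3 fitted 3 group means to all 6 arrays (lmFit, eBayes with an intensity trend, 3 residual and 5.35 prior degrees of freedom), with Benjamini-Hochberg adjustment over all genes. The fit was tested on simulated data. An SE is that of the log2 difference. A probe set is lower without overlap when both arrays of a group lie below both of the other.

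The members, the lists and the design were chosen with earlier results of these data known. Named members are the 16 largest differences with MT1-MMP siRNA, the 6 largest with alpha3 siRNA, those above 0.1 with MT1-MMP siRNA, and those whose probe sets differ in sign by over 0.5. Named other genes are the 6 largest falls and 3 largest rises without overlap, and called genes. Members named by log2 difference alone, and PNO1 and FBL with their signals, were chosen after their values were seen. Of 20 other settings, 18 were listed at the start and 2 were chosen after seeing the data. Figures were drawn with matplotlib 3.10.9.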

Additional observations from a re-analysis of the deposited data

How the results depend on the processing

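The members' median log2 difference from mock with MT1-MMP siRNA stayed below 0 under all 20 alternatives, between -0.44 and -0.35 over changes of normalization, offset, filter, probe sets and model, and between -0.50 and -0.29 when 1 array was left out, with 32 to 34 of 38 members below 0. With alpha3 siRNA against mock it ranged from 0.0052 to 0.29 over arrays left out, and between the siRNAs from -0.73 to -0.42. For the other biogenesis genes the ranges were -0.43 to -0.19, 0.03 to 0.24 and -0.56 to -0.35. Counts of called genes moved more. For MT1-MMP siRNA against mock (0 genes) they were 1 with quantile normalization, 3 with an offset of 1, 6 with 100, 2 with probe sets averaged per gene, 2 with every probe set, 7 with only the compared groups, 11 without _x_at probe sets, and 0 to 8 with 1 array left out. Among settings with no array left out, MRTO4 passed only with the compared groups alone, without _x_at probe sets, and with the replicate blocks described below. That is a description, because MRTO4 was listed with this comparison known. For alpha3 siRNA against mock (2 genes) they were 1 with quantile normalization, cyclic loess, an offset of 100, no filter, every probe set or only the compared groups, 0 with an offset of 1 or a filter at the 60th percentile, and 0 to 9 with 1 array left out. Between the siRNAs (112 genes) they were 74 with an offset of 1, 22 without a filter, 178 at the 60th percentile, 72 without the intensity trend, and 0 to 83 with 1 array left out. The cause of these moves was not tested.

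The array numbers gave deviations from the group means that correlated at -0.18 between mock and each siRNA group and at 0.13 between the siRNA groups, so the numbers were not taken to pair the arrays. With the replicate number as a block, 11, 4 and 114 genes were called in the 3 comparisons. With the mock numbers crossed, an alternative chosen after seeing the data, the replicate block called 51, 7 and 599 of 8045 genes. Of these 3, 0 and 13 were members, out of 38. The member counts are a description, because the members were listed with the MT1-MMP siRNA arrays known. The number of arrays limits the precision, and signals near the filter carry the least.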
